A study of Mus musculus with 11 samples.

Results

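The INK4 and CIP/KIP inhibitors are 7 genes whose products restrain the cyclin-dependent kinases (CDKs). They were chosen by gene symbol, as Cdkn2a, Cdkn2b, Cdkn2c and Cdkn2d of the INK4 family and Cdkn1a, Cdkn1b and Cdkn1c of the CIP/KIP family, out of 17181 genes in the deposited table. Transcripts were measured by sequencing of poly(A) RNA in 11 tumours grown under the skin of both flanks from 4T1, a mouse mammary carcinoma line labelled wild type and serving here to model triple-negative breast cancer. Dosing started at about 100 mm3 and went on for 12 days. The vehicle group (n = 2) received lactate buffer, corn oil and DMSO, and is called untreated in the sample titles. The OPG-Fc group (n = 3) received 10 mg/kg by intraperitoneal injection, 3 times a week, of osteoprotegerin fused to an antibody Fc part, a decoy receptor for RANKL. The palbociclib group (n = 3) received 30 mg/kg each day by mouth of this inhibitor of CDK4 and CDK6. The combination group (n = 3) received both agents at those doses. The design text places the tumours in NSG mice, a strain without T, B or NK cells, while the title speaks of a syngeneic model.

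CDK4 and CDK6, bound to D-type cyclins, phosphorylate the retinoblastoma protein RB and so release E2F factors that drive entry into S phase. INK4 proteins bind CDK4 and CDK6 and weaken their hold on the cyclin, and palbociclib inhibits the same kinases as a small molecule. CIP/KIP proteins bind cyclin-CDK complexes more broadly, inhibit CDK2 and can also help to assemble cyclin D complexes. Cdkn2a encodes p16INK4a and, from another first exon and in another reading frame, p19ARF, which stabilises p53 by binding MDM2.

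Upstream sequences are shown for Cdkn2a, because its single value joins transcripts from both first exons, and for Cdkn2d, because it gave 1 of the 2 differences that passed a test. They are the 250 bases before each start in RefSeq's promoter table (build GRCm38.p6, an older build than that of the expression values), written 5′ to 3′ on the minus strand, on which both genes lie. Capitals mark the GC box GGGCGG, searched on both strands. The first Cdkn2a window lies at chr4:89282193-89282442 and the second at chr4:89294620-89294869, 12427 bases apart. The Cdkn2d window lies at chr9:21291210-21291459.
Cdkn2a, first window: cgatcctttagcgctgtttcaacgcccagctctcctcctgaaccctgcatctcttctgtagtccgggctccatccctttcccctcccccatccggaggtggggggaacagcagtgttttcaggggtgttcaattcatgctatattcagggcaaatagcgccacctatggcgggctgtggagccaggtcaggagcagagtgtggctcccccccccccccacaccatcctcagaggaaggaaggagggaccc
Cdkn2a, second window: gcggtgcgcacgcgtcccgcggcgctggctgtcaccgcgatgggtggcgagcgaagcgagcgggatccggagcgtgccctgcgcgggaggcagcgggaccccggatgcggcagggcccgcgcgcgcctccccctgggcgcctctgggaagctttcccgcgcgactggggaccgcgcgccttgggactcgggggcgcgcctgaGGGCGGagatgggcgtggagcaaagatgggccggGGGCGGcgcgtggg
Cdkn2d: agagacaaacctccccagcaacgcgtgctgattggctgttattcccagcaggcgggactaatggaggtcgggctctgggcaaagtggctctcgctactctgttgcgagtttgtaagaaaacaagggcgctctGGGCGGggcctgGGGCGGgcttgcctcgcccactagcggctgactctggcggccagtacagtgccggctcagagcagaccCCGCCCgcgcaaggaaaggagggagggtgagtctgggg

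The windows before the Cdkn2a starts differed in base content, with 7 CpG pairs and 0 GC boxes in the first and 40 CpG pairs and 2 GC boxes in the second. The Cdkn2d window held 16 CpG pairs and 3 GC boxes. Over the table's 32851 windows the median was 6 CpG pairs, the 90th percentile was 25, and 32.7% held a GC box. Starts were found in the table for 6 of the 7 genes, all but Cdkn1c. The deposited values are per gene, so levels of p16INK4a and p19ARF transcripts cannot be told apart in them.

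The unit is FPKM, in which fragment numbers are divided by transcript length and library total, which allows levels to be compared between genes. FPKM values summed to between 576699 and 864670 per library, and the read depth is unknown. Vehicle replicate 2 stood apart. The summed FPKM of 9 epithelial markers was 56.1 there and 2449 to 3615 in the other 10 libraries, and that of 6 B cell markers was 5486 against 0.46 to 629. Tests were therefore run on all 11 libraries and again without that library, which leaves 1 vehicle tumour assumed to vary like the other groups. The first number in the column name is the same for combination replicates 1 and 2 and for OPG-Fc replicates 2 and 3, but whether such tumours came from 1 animal is not stated in the labels. The p-values therefore measure only the spread between these tumours. In bulk tissue, fewer cells of a type and less RNA per cell cannot be told apart.

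All 7 inhibitors were present in the table, 0 lay under 1 FPKM in every library, and all 7 passed the filter of at least 1 FPKM in at least 2 libraries. Cdkn2c, which encodes p18INK4c, had the highest level, at 76.2 to 101 FPKM in the 10 libraries other than vehicle replicate 2. Cdkn1b (24.4 to 42.9 FPKM), Cdkn1a (24.0 to 42.8 FPKM) and Cdkn2d (16.1 to 36.7 FPKM) followed, and each overlapped its neighbour in this order. The levels of Cdkn2b, Cdkn2a and Cdkn1c were far lower and overlapped one another, at 1.13 to 3.62, 0.18 to 3.09 and 0.36 to 1.69 FPKM. Cdkn2a and Cdkn1c were under 1 FPKM in 7 of the 11 libraries each, which is near 0 in most tumours. In vehicle replicate 2 the order differed, with Cdkn2d (37.7 FPKM) above Cdkn1b (31.6 FPKM) and Cdkn2c (29.3 FPKM), and with Cdkn2a at 7.64 FPKM.

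**Figure D1:**
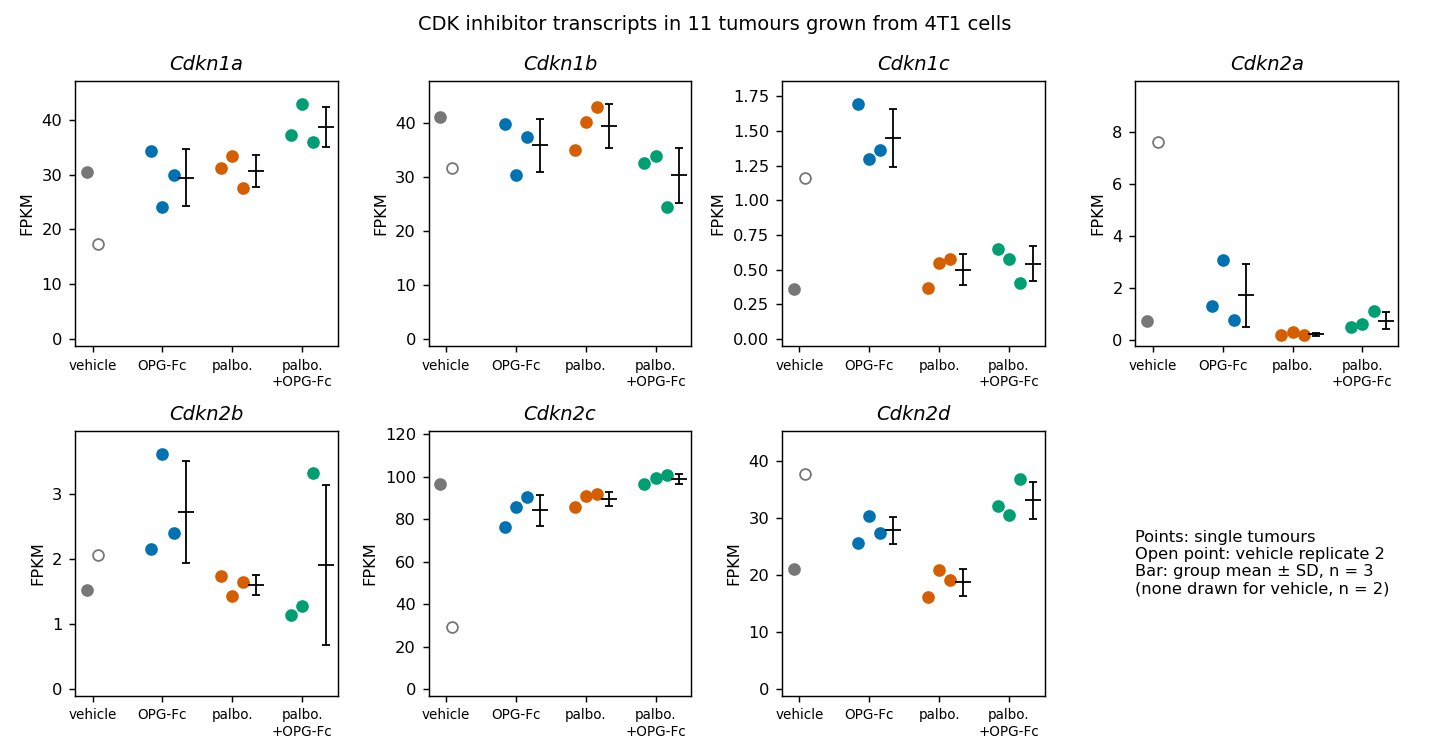
FPKM of the 7 inhibitors (vertical axes, each panel with its own scale) by treatment group; points are single tumours, the open point is vehicle replicate 2, and bars are the mean ± SD of groups with 3 tumours. Cdkn1a, Cdkn2a, Cdkn2c and Cdkn2d lay higher in all 3 combination tumours than in all 3 palbociclib tumours, and Cdkn1b lay lower. Cdkn1c lay higher in all 3 OPG-Fc tumours than in the palbociclib and combination tumours. The share of all genes that separate in this way was not counted.

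The INK4 sum was made up mainly of Cdkn2c and Cdkn2d. Cdkn2c gave 81.4% ± 1.30 of the summed INK4 FPKM in palbociclib tumours, 72.3% ± 2.46 in OPG-Fc tumours and 73.5% ± 2.25 in combination tumours (SD, n = 3). It gave 80.5% in vehicle replicate 1 and 38.2% in vehicle replicate 2. Cdkn2d gave 16.9% ± 1.46, 23.9% ± 1.11 and 24.5% ± 1.36 in the palbociclib, OPG-Fc and combination tumours. Summed over the 4 genes, INK4 FPKM was 110 ± 5.35 with palbociclib, 116 ± 9.71 with OPG-Fc and 135 ± 6.59 with the combination, and every combination tumour lay above every other tumour. CIP/KIP sums overlapped between these groups, at 70.6 ± 3.82, 66.7 ± 10.3 and 69.4 ± 8.26 FPKM. Cdk4, the main target kinase by transcript level, had 259 to 598 FPKM in the 10 libraries, and Cdk6 had 5.62 to 12.3 FPKM. Mean Cdk4 was 365 ± 45.6, 301 ± 36.7 and 445 ± 134 FPKM in palbociclib, OPG-Fc and combination tumours. The INK4 sum over the sum of Cdk4 and Cdk6 was 0.269 to 0.309, 0.364 to 0.390 and 0.235 to 0.366 in these groups. It was 0.389 and 0.435 in vehicle replicates 1 and 2, so the combination tumours did not lie above the others by this ratio.

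**Figure D2:**
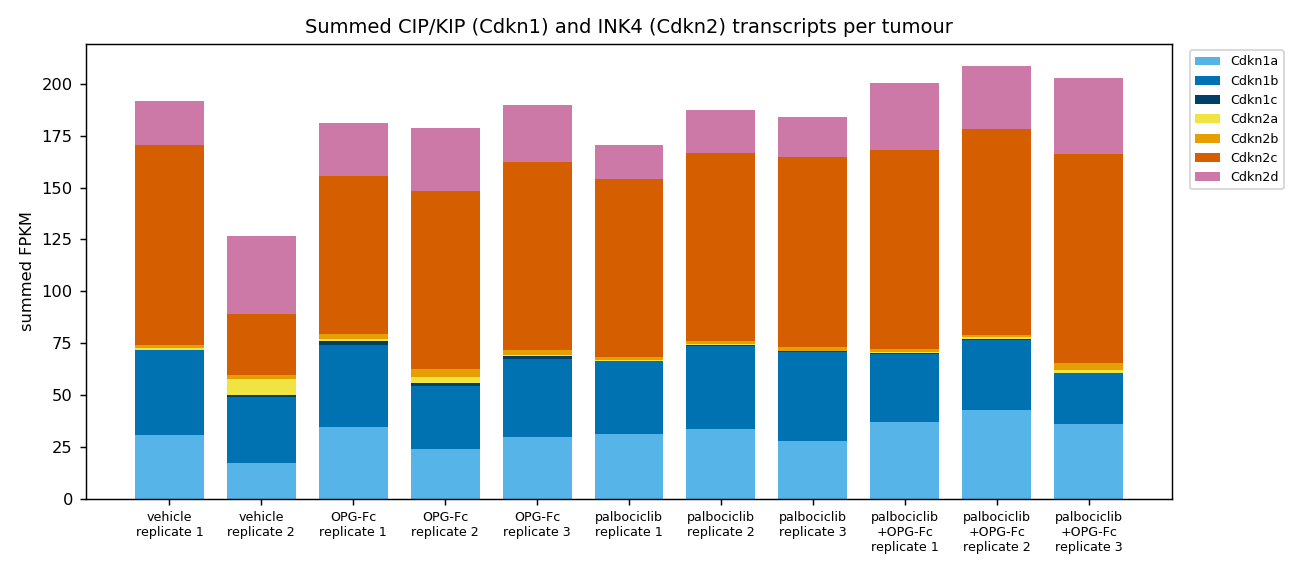
Summed FPKM of the 7 inhibitors in each of the 11 tumours (vertical axis from 0), stacked by gene, with Cdkn1 genes of the CIP/KIP family at the bottom and Cdkn2 genes of the INK4 family above. Totals ran from 170 to 209 FPKM in the 10 libraries other than vehicle replicate 2, which had 127 FPKM.

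Across the 8 comparisons, limma called 0 of the 7 inhibitors with all 11 libraries (Benjamini-Hochberg adjusted p below 0.05 over 13074 genes). Of all genes, 0% passed for each treated group against vehicle, for the combination against palbociclib, for OPG-Fc averaged over palbociclib and for the interaction, 0.0994% for the combination against OPG-Fc and 2.83% for palbociclib averaged over OPG-Fc. Without vehicle replicate 2, limma called 1 inhibitor for OPG-Fc averaged over palbociclib (Cdkn2d, higher), where 3.46% of all genes passed, 414 higher and 38 lower, and 1 for the combination against OPG-Fc (Cdkn1c, lower), where 4.7% passed, 129 higher and 486 lower. It called 0 in the other 6 comparisons, where the share of all genes was 0% for palbociclib against vehicle, for the combination against palbociclib and for the interaction, 0.00765% for OPG-Fc against vehicle, 0.0612% for the combination against vehicle and 3.91% for palbociclib averaged over OPG-Fc. At an unadjusted limma p under 0.05 with all 11 libraries, 0 to 3 inhibitors were counted per comparison, beside 709 to 4430 of all 13074 genes. The 3 were counted for palbociclib averaged over OPG-Fc, the comparison with the 4430 genes. Of the 10 libraries other than vehicle replicate 2, Cdkn1c reached 1 FPKM in the 3 OPG-Fc tumours alone. It therefore passed the filter through the group where it was high, although its call also came with no filter. Genes whose groups did not overlap were not counted, so all statements of tumours lying apart, above and below, are descriptions. Comparisons against vehicle share the same control tumours, and fold changes below are on the log2(FPKM + 1) scale, which understates changes of genes with low values.

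**Figure D3:**
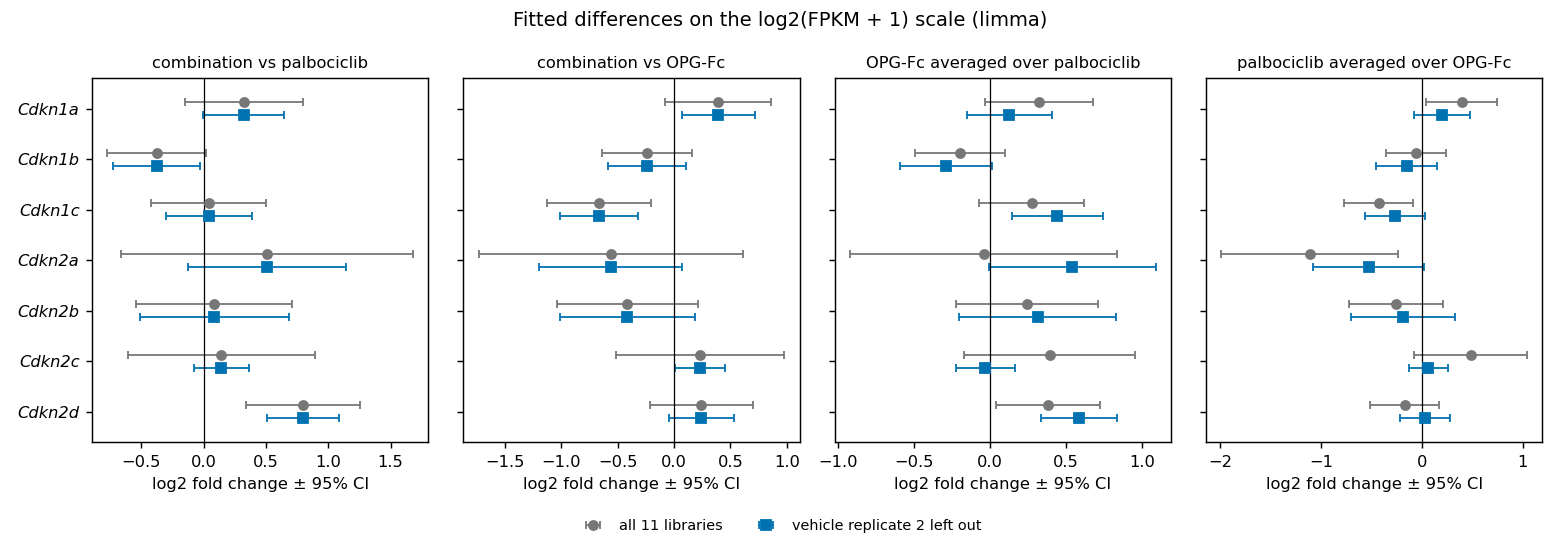
Fitted log2 fold changes (horizontal axes, log2(FPKM + 1) scale) with 95% confidence intervals from limma for the 7 inhibitors in 4 comparisons; circles are fits of all 11 libraries and squares leave out vehicle replicate 2. The interval of Cdkn2d for the combination against palbociclib lies above 0 in both fits, and that of Cdkn1c for the combination against OPG-Fc lies below 0 in both. Intervals are not adjusted for the number of genes. After adjustment the Cdkn2d difference passed in neither fit, and the Cdkn1c difference did not pass with all 11 libraries.

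Cdkn2d, which encodes p19INK4d, was higher with OPG-Fc than without it when averaged over palbociclib. FPKM was 16.1, 20.9 and 19.1 in palbociclib replicates 1 to 3 and 32.1, 30.4 and 36.7 in combination replicates 1 to 3. It was 25.6, 30.4 and 27.4 in OPG-Fc replicates 1 to 3, 21.1 in vehicle replicate 1 and 37.7 in vehicle replicate 2. All 6 tumours with OPG-Fc lay above the 3 palbociclib tumours and vehicle replicate 1, and vehicle replicate 2 lay above them all. The averaged OPG-Fc difference was 0.59 ± 0.11 (SE, adjusted p = 0.0275) without vehicle replicate 2 and 0.38 ± 0.15 (adjusted p = 0.442) with it, by limma. Between combination and palbociclib tumours the mean differed 1.77-fold, a log2 difference of 0.79 that missed the threshold in both fits (SE 0.20, adjusted p = 0.637, and SE 0.13, adjusted p = 0.0543). The OPG-Fc difference alone, against vehicle, was -0.02 ± 0.23, and 0.38 ± 0.18 once vehicle replicate 2 was left out (adjusted p = 0.967 and 0.444). Palbociclib alone stood at -0.58 ± 0.23 and -0.18 ± 0.18 against vehicle (adjusted p = 0.162 and 0.754). For the combination against vehicle the values were 0.22 ± 0.23 and 0.62 ± 0.18 (adjusted p = 0.522 and 0.113). Relative to OPG-Fc alone, the combination stood at 0.24 ± 0.20 and 0.24 ± 0.13 (adjusted p = 0.587 and 0.226). The interaction, which asks whether the OPG-Fc difference is larger under palbociclib, was 0.82 ± 0.31 and 0.42 ± 0.22 (adjusted p = 0.647 and 0.951) and did not pass.

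The averaged Cdkn2d call rested on few tumours. Over the 14 alternatives without vehicle replicate 2 its difference ran from 0.53 to 0.63 and its adjusted p from 0.0248 to 0.0910. The call ended on leaving out OPG-Fc replicate 1, 2 or 3 (adjusted p = 0.0503, 0.0583 and 0.0529), palbociclib replicate 1 or 3 (0.0548 and 0.0648) or combination replicate 1 (0.0596). The difference between combination and palbociclib tumours passed without palbociclib replicate 2 (0.87, adjusted p = 0.0139) and without combination replicate 2 (0.85, adjusted p = 0.0337), each also without vehicle replicate 2. Its adjusted p ran from 0.0139 to 0.210 over the 14 alternatives. Markers of several other cell types differed between the same tumours. Adipocyte markers (5 of 5 measured, none at 0) summed to 76.0 to 1342 FPKM in the 6 tumours with OPG-Fc, 48.7 to 69.3 in palbociclib tumours, 53.6 in vehicle replicate 1 and 636 in vehicle replicate 2. Pericyte and smooth muscle markers (5 of 5 measured, none at 0) summed to 145 to 232, 74.1 to 123, 117 and 94.9 FPKM in these, so that the sums of the 6 tumours with OPG-Fc lay above the other 5. The median marker of that list did not separate them, at 6.89 to 31.9, 9.25 to 10.6, 2.20 and 17.7 FPKM in the same order. Summed macrophage FPKM, with 7 of 7 markers measured and none at 0, was 653 to 856 in palbociclib tumours, 947 to 2069 in combination tumours, 1474 to 1605 in OPG-Fc tumours, 996 in vehicle replicate 1 and 1789 in vehicle replicate 2, and did not separate tumours with OPG-Fc from vehicle replicate 1. The part of these cell types in the Cdkn2d values was not tested.

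Cdkn2c, the INK4 gene with the highest level, was tightly spread outside vehicle replicate 2. FPKM was 96.6 in vehicle replicate 1 and 29.3 in vehicle replicate 2, 76.2, 85.9 and 90.5 in the OPG-Fc tumours, 85.9, 90.8 and 91.8 in the palbociclib tumours and 96.3, 99.3 and 101 in the combination tumours. Each combination tumour lay above each OPG-Fc and palbociclib tumour, and vehicle replicate 1 lay among the combination tumours. The size depended on the processing. With all 11 libraries, alternatives other than leaving out a library gave log2 differences of 0.03 to 0.15 against palbociclib and 0.06 to 0.33 against OPG-Fc. The combination stood at 0.14 ± 0.33 against palbociclib with all 11 libraries and 0.14 ± 0.10 without vehicle replicate 2 (adjusted p = 0.940 and 0.456, limma). Without that library the 95% interval of this difference ran from -0.08 to 0.37. Against OPG-Fc the combination stood at 0.23 ± 0.33 and 0.23 ± 0.10 (adjusted p = 0.763 and 0.148). The palbociclib difference from vehicle was 0.73 ± 0.37 over all 11 libraries and turned to -0.11 ± 0.14 once vehicle replicate 2 was left out (adjusted p = 0.209 and 0.808). Epithelial markers were likewise low in that library, as given above, and their part in its low Cdkn2c value was not tested.

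Cdkn2b, which encodes p15INK4b and is a known target of TGF-beta signalling, stayed at low levels. FPKM was 1.52 and 2.06 in the vehicle tumours, 2.16, 3.62 and 2.40 in the OPG-Fc tumours, 1.74, 1.43 and 1.64 in the palbociclib tumours and 1.13, 1.27 and 3.33 in the combination tumours. The OPG-Fc tumours lay above both vehicle tumours, while combination replicate 3 lay apart from its group. OPG-Fc against vehicle gave 0.40 ± 0.31 with all 11 libraries and 0.54 ± 0.38 without vehicle replicate 2, and neither passed (adjusted p = 0.545 and 0.642, limma).

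Cdkn2a was under 1 FPKM in 7 of the 11 libraries, was lowest with palbociclib alone and varied most between tumours. FPKM was 0.18, 0.30 and 0.18 in the palbociclib tumours, 0.51, 0.63 and 1.12 in the combination tumours and 1.32, 3.09 and 0.77 in the OPG-Fc tumours. It was 0.72 in vehicle replicate 1 and 7.64 in vehicle replicate 2. The palbociclib tumours lay below all others, and the combination tumours overlapped the OPG-Fc tumours. Palbociclib against vehicle gave -1.66 ± 0.58 with all 11 libraries and -0.50 ± 0.40 without vehicle replicate 2 (adjusted p = 0.158 and 0.694, limma). Averaged over OPG-Fc, the palbociclib difference was -1.11 ± 0.39 and -0.53 ± 0.25 (adjusted p = 0.0979 and 0.189). The combination stood at 0.51 ± 0.52 and 0.51 ± 0.28 against palbociclib (adjusted p = 0.837 and 0.361) and at -0.56 ± 0.52 and -0.56 ± 0.28 against OPG-Fc (adjusted p = 0.626 and 0.203). The averaged OPG-Fc difference was -0.04 ± 0.39 and turned to 0.54 ± 0.25 without vehicle replicate 2 (adjusted p = 0.971 and 0.250).

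Summed B cell markers followed nearly the same order over the tumours as Cdkn2a, and the median marker followed it less closely. Their summed FPKM, with 6 of 7 markers measured, was 0.46 to 0.60 in palbociclib tumours, 1.04 to 15.0 in combination tumours, 13.1, 14.6 and 629 in OPG-Fc replicates 3, 1 and 2, 11.7 in vehicle replicate 1 and 5486 in vehicle replicate 2. Among them, Ms4a1 was at 0 in palbociclib replicates 1 and 3 and Pax5 in combination replicate 1. The median B cell marker had 0.035, 0.09 and 0.06 FPKM in palbociclib replicates 1 to 3. It had 0.06, 0.445 and 1.215 FPKM in combination replicates 1 to 3 and 0.30, 31.01 and 0.295 FPKM in OPG-Fc replicates 1 to 3. In vehicle replicates 1 and 2 it had 0.58 and 295 FPKM. Lymph node stroma markers, 4 of 4 measured, summed to 1253 FPKM in vehicle replicate 2 and 206 FPKM in OPG-Fc replicate 2. They summed to 2.29 to 24.9 FPKM in the other tumours. T and NK cell markers, 7 of 7 measured, summed to 545 and 106 FPKM in those replicates and to 10.7 to 41.3 FPKM in the others. Endothelial and macrophage sums were also lowest in the 3 palbociclib tumours, at 44.6 to 49.6 and 653 to 856 FPKM. In all other tumours these were at least 50.5 and 947 FPKM. Fibroblast and adipocyte sums of palbociclib tumours overlapped those of other tumours. The part of any of these cell types in the Cdkn2a values was not tested.

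**Figure D4:**
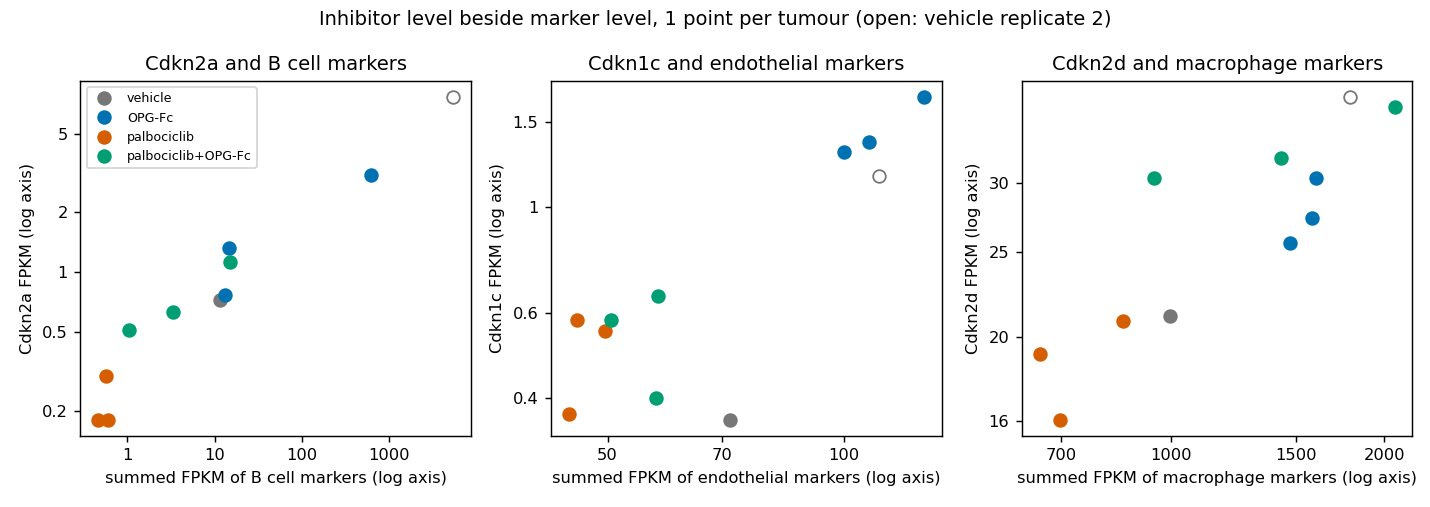
FPKM of Cdkn2a, Cdkn1c and Cdkn2d (vertical log axes) beside the summed FPKM of B cell, endothelial and macrophage markers (horizontal log axes), 1 point per tumour, with vehicle replicate 2 open. Cdkn2a is lowest in the 3 palbociclib tumours, whose B cell sums are at most 0.60, and highest in vehicle replicate 2, whose B cell sum is 5486.

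Of the CIP/KIP genes, Cdkn1c was lower in combination tumours than in OPG-Fc tumours. This imprinted gene encodes p57KIP2 and is known for its role in development. FPKM was 1.69, 1.30 and 1.36 in the OPG-Fc tumours and 0.65, 0.58 and 0.40 in the combination tumours. It was 0.37, 0.55 and 0.58 in the palbociclib tumours, 0.36 in vehicle replicate 1 and 1.16 in vehicle replicate 2. The OPG-Fc tumours lay above all others, and the palbociclib and combination tumours overlapped. Of the 10 libraries other than vehicle replicate 2, Cdkn1c reached 1 FPKM in the 3 OPG-Fc tumours alone, so it passed the filter there through the group where it was high. Mean FPKM was 2.67 times as high in OPG-Fc as in combination tumours. The fitted difference of combination from OPG-Fc tumours was -0.67 on the log2 scale (SE 0.15, adjusted p = 0.0444, limma) without vehicle replicate 2. With all 11 libraries the difference was -0.67 ± 0.21 and did not pass (adjusted p = 0.250). OPG-Fc against vehicle gave 0.51 ± 0.23 and, without vehicle replicate 2, 0.85 ± 0.22 (adjusted p = 0.471 and 0.154). The averaged OPG-Fc difference was 0.28 ± 0.15 and 0.44 ± 0.13 (adjusted p = 0.525 and 0.10), and the averaged palbociclib difference was -0.43 ± 0.15 and -0.26 ± 0.13 (adjusted p = 0.0999 and 0.217). The interaction was -0.47 ± 0.31 and -0.81 ± 0.27 (adjusted p = 0.647 and 0.951).

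The Cdkn1c call lay close to the threshold, and it also came with no filter. Over the 14 alternatives without vehicle replicate 2 its adjusted p ran from 0.0183 to 0.149 and its difference from -1.28, at a pseudocount of 0.1, to -0.44. It passed without palbociclib replicate 2 (adjusted p = 0.0415). It ended on leaving out OPG-Fc replicate 1, 2 or 3 (0.149, 0.0682 and 0.0944), palbociclib replicate 1 or 3 (0.0603 and 0.0779) or combination replicate 1, 2 or 3 (0.0627, 0.104 and 0.0975). Marker sums of several other cell types were also higher in OPG-Fc than in combination and palbociclib tumours. Endothelial markers (6 of 6 measured, none at 0) summed to 100 to 127 FPKM in OPG-Fc tumours, 50.5 to 58.1 in combination tumours, 44.6 to 49.6 in palbociclib tumours, 71.7 in vehicle replicate 1 and 111 in vehicle replicate 2. Fibroblast markers (7 of 7 measured, none at 0) summed to 1750 to 2588, 660 to 914 and 509 to 675 FPKM in the OPG-Fc, combination and palbociclib tumours and to 1269 and 687 in vehicle replicates 1 and 2. Adipocyte markers (5 of 5 measured, none at 0) summed to 489 to 1342, 76.0 to 405 and 48.7 to 69.3 FPKM in those groups and to 53.6 and 636 in the vehicle replicates. Their part in the Cdkn1c values was not tested.

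Cdkn1a, which encodes p21CIP1 and is a classical target of p53, had its highest levels in the combination tumours. FPKM was 37.1, 42.8 and 36.0 there, against 31.1, 33.4 and 27.6 with palbociclib, 34.4, 24.0 and 29.9 with OPG-Fc and 30.5 and 17.3 with vehicle. Each combination tumour lay above every other tumour, and the remaining groups overlapped. None of the fitted differences passed in limma. The combination stood at 0.32 ± 0.21 and, without vehicle replicate 2, 0.32 ± 0.14 against palbociclib (adjusted p = 0.753 and 0.285), and at 0.39 ± 0.21 and 0.39 ± 0.14 against OPG-Fc (adjusted p = 0.386 and 0.110). Against vehicle it stood at 0.72 ± 0.24, and at 0.33 ± 0.20 once vehicle replicate 2 was left out (adjusted p = 0.101 and 0.351). The averaged palbociclib difference was 0.39 ± 0.16 and 0.20 ± 0.13 (adjusted p = 0.122 and 0.305).

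Cdkn1b, which encodes p27KIP1, a CDK2 inhibitor cleared through the SKP2 ubiquitin ligase, was lowest on average in the combination tumours. FPKM was 32.6, 33.9 and 24.4 in the combination tumours, 35.04, 40.2 and 42.9 in the palbociclib tumours, 39.8, 30.3 and 37.3 in the OPG-Fc tumours and 41.0 and 31.6 in the vehicle tumours. The combination tumours lay below the palbociclib tumours and overlapped the OPG-Fc tumours. The combination stood at -0.38 ± 0.18 against palbociclib with all 11 libraries and -0.38 ± 0.16 without vehicle replicate 2, and neither passed (adjusted p = 0.730 and 0.259, limma). The averaged OPG-Fc difference was -0.20 ± 0.13 and -0.29 ± 0.13 (adjusted p = 0.572 and 0.262).

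Genes that work with the inhibitors were read from 6 lists. In all 8 comparisons and both fits, 0 of 17 genes of RB, its relatives and E2F factors passed, as did 0 of 14 proliferation genes and 0 of 21 tested p53 targets other than Cdkn1a. For the combination against palbociclib the medians of the fitted differences were 0.09, 0.21 and 0.08 for these lists, beside 0.02 over all genes. Of 15 kinases and cyclins, 1 passed: Ccnd2, a D-type cyclin, was lower in combination than in OPG-Fc tumours without vehicle replicate 2 (-0.82 ± 0.19, adjusted p = 0.0437), where 4.7% of all genes passed and the list's median was 0.13 beside -0.07 over all genes. Of 13 genes for degradation of the inhibitors, 1 passed: Cdc20, an activator of the anaphase-promoting ubiquitin ligase, was higher with OPG-Fc averaged over palbociclib in the same fit (0.77 ± 0.14, adjusted p = 0.0254). There 3.46% of all genes passed.

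Among 27 transcriptional regulators, 4 were lower in combination than in OPG-Fc tumours without vehicle replicate 2 and 0 were higher. These were Foxo1 (-0.50 ± 0.10), Foxo3 (-0.55 ± 0.13) and Foxo4 (-0.52 ± 0.12), whose products are known activators of Cdkn1b, and Ets2 (-0.42 ± 0.10), with adjusted p from 0.0330 to 0.0474. Of all genes, 486 were lower and 129 higher in that comparison (4.7% in all), and the list's median was -0.11 beside -0.07 over all genes. With OPG-Fc averaged over palbociclib, Cebpa (1.15 ± 0.18, adjusted p = 0.0150) and Id1 (0.44 ± 0.09, adjusted p = 0.0304) were higher and Ets2 was lower (-0.48 ± 0.09, adjusted p = 0.0242), beside 3.46% of all genes. With palbociclib averaged over OPG-Fc, Cebpb (1.31 ± 0.21, adjusted p = 0.0169) and Id1 (0.46 ± 0.09, adjusted p = 0.0285) were higher and Foxo1 (-0.48 ± 0.09, adjusted p = 0.0273) and Ets2 (-0.40 ± 0.09, adjusted p = 0.0385) were lower, beside 3.91% of all genes. With all 11 libraries that comparison gave 1 higher, Cebpb (1.77 ± 0.32, adjusted p = 0.0415), and 1 lower, Sp1 (-0.66 ± 0.15, adjusted p = 0.0498), beside 2.83% of all genes.

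The genes most alike in pattern to each inhibitor were taken by Pearson's r of log2(FPKM + 1) over the 10 libraries other than vehicle replicate 2, which share groups and tissue content. They are given as a description, and several likenesses were lost when vehicle replicate 2 was added. Cdkn2d was most like Tubb6, a beta-tubulin gene (r = 0.97, and 0.05 over all 11 libraries), and Ak8 (r = 0.96, and 0.96). Cdkn2a was most like Klhl6 (r = 0.98), a gene of B lymphocytes, and Rtl6 (r = 0.97), with 0.98 and 0.96 over all 11, and Cdkn2b was most like Hdhd5 (r = 0.94, and 0.45 over all 11) and Dgat1 (r = 0.93, and 0.92). Cdkn2c was most like Cln6 (r = 0.95, and 0.76 over all 11) and the proteasome subunit gene Psma3 (r = 0.95, and 0.62). Cdkn1c was most like Ifngr1, an interferon-gamma receptor chain (r = 0.99, and 0.87 over all 11), and Grk5 (r = 0.98, and 0.96). Cdkn1a was most like Mtmr11 (r = 0.93, and 0.86 over all 11) and Atpaf1 (r = 0.91, and 0.12), and Ppp1cb (r = 0.97, and 0.96) was among the genes most like Cdkn1b. Among the inhibitors themselves, r was highest for Cdkn2a with Cdkn2b (0.76) and lowest for Cdkn1b with Cdkn2d (-0.72) over the 10 libraries. This order also turned on vehicle replicate 2: over all 11 libraries, r was highest for Cdkn1a with Cdkn2c (0.80) and lowest for Cdkn2a with Cdkn2c (-0.82), and Cdkn2a with Cdkn2b stood at 0.49.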

How the data were processed

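Poly(A) RNA of 11 tumours was sequenced. The tools HISAT, Bowtie2 and RSEM and the builds GRCm39 and mm39 are named, without versions or roles, per the submitters' processing notes. The authors deposited the values as FPKM for 17181 genes, with no counts. Genes at 1 FPKM or more in at least 2 libraries (13074) were fitted as log2(FPKM + 1) by group using limma (version 3.58.1, R 4.3.3) and a variance trend, on all 11 libraries and again without vehicle replicate 2. Simulated data with known changes were used to test the fit. P-values were adjusted by Benjamini-Hochberg over all genes of a comparison. Errors of fold changes are standard errors.

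The 7 inhibitors were all named, with the 2 genes most alike in pattern to each and up to 4 genes with the smallest p from each list of related genes; single genes were named from a list only where they passed, and some genes are not reported here. The inhibitors, lists and markers were chosen with earlier results of these data known. Alternatives were a pseudocount of 0.1, no filter, median-of-ratios scaling, quantile normalization, only the groups compared, the replicate number as a block, averaging libraries that share a first number, and leaving out each library. Those combined with leaving out vehicle replicate 2 were chosen after seeing the data. Plots were made in Python 3.11.15 with matplotlib 3.10.9.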

Additional observations from a re-analysis of the deposited data

Results flagged for a closer look

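In 28 sets of 5 or 6 tumours that share a drug status, 1 for each inhibitor with or without each drug, 6 held a tumour far from the others by Dixon's criterion. Chance marks about 1 in 20 such sets, and sets of different drugs share tumours. Vehicle replicate 2 was the distant tumour in 4 sets without OPG-Fc. It had 7.64 FPKM of Cdkn2a against 0.18 to 0.72 in the other 4 tumours, 37.7 of Cdkn2d against 16.1 to 21.1, 1.16 of Cdkn1c against 0.36 to 0.58, and 29.3 of Cdkn2c against 85.9 to 96.6.

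OPG-Fc replicate 2 had 3.09 FPKM of Cdkn2a against 0.51 to 1.32 in the other 5 tumours with OPG-Fc, and it also had the highest B cell marker sum of these tumours. Combination replicate 3 had 3.33 FPKM of Cdkn2b against 1.13 to 1.74 in the other 5 tumours with palbociclib.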

How the results depend on the processing

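Without vehicle replicate 2, the single call for OPG-Fc averaged over palbociclib became 0 with median-of-ratios scaling and 2 with no filter, where Cdkn1c joined Cdkn2d. The single call for the combination against OPG-Fc became 0 with median-of-ratios scaling, a pseudocount of 0.1 or quantile normalization. Leaving out 1 further library gave 0 to 1 calls in both comparisons and 0 to 1 for the combination against palbociclib. With all 11 libraries, leaving out 1 gave 0 to 4 called inhibitors for palbociclib against vehicle, 0 to 3 for OPG-Fc and for the combination against vehicle, 0 to 5 for averaged palbociclib, 0 to 2 for averaged OPG-Fc, 0 to 3 for the interaction and 0 to 1 for the combination against OPG-Fc. The highest values came without vehicle replicate 1, which left vehicle replicate 2 as the only control and where, of 13074 genes, 6802, 5272, 6640, 6927, 4012, 4800 and 623 passed in these comparisons, in the same order.

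Directions turned mostly with the vehicle tumours. Leaving out 1 library moved the Cdkn2c difference of palbociclib from vehicle between -0.11 and 1.58, and those of Cdkn2d from vehicle between -0.43 and 0.38 for OPG-Fc and between -0.19 and 0.62 for the combination. The averaged OPG-Fc difference of Cdkn2a ran from -0.62 to 0.54 and was 0.35 at a pseudocount of 0.1.

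The replicate numbers did not pair the tumours. Deviations of same-numbered tumours correlated at -0.41 to 0.53, with 5 of 15 pairs over 0.1, and 3 of 11 libraries correlated best with their own number. With the replicate number as a block and without vehicle replicate 2, the inhibitors called were 0 for OPG-Fc averaged over palbociclib and 0 for the combination against OPG-Fc.

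Counts over all genes moved as well. For averaged palbociclib, 370 genes passed with all 11 libraries, 181 with median-of-ratios scaling, 184 with quantile normalization, 224 with no filter, 7 with the replicate block, 0 when libraries sharing a first number were averaged, and 2 to 6927 on leaving out 1. For the combination against OPG-Fc 13 passed, 160 with only the groups compared, 0 under the other settings and 0 to 623 on leaving out 1. Without vehicle replicate 2, 615 passed there, 284 with quantile normalization, 203 with the block and 23 to 804 on leaving out a further library. The 452 for averaged OPG-Fc became 290 with no filter and 136 with the block, and the 511 for averaged palbociclib became 33 with the block. Leaving out a further library gave 110 to 650 and 112 to 750 there, and 0 to 374 for the combination against palbociclib. Without palbociclib replicate 2, 156 passed for palbociclib against vehicle, 143 for the combination against palbociclib, 79 for averaged OPG-Fc and 61 for the interaction, each from 0. In the main fit, leaving out a vehicle tumour alters only the shared estimate of spread for comparisons between treated groups. The Cdkn1c difference for the combination against OPG-Fc was -0.67 with and without vehicle replicate 2. The cause of the other changes was not tested. Depth is unknown, so how far it limits the genes near 0 is unknown as well.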

Other observations

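Genes next to the inhibitors on their chromosomes (order from RefSeq's GRCm38.p6 gene table) ranged from levels near those of the inhibitor beside them to levels far from them. Mtap, a methionine salvage enzyme gene beside Cdkn2a, had 266 to 389 FPKM in the 10 libraries other than vehicle replicate 2, where it had 20.3 FPKM. Cdkn2a ran the other way, at 0.18 to 3.09 FPKM in the 10 libraries and 7.64 in vehicle replicate 2. Dmrta1, beyond Cdkn2b, had 0 to 0.06 FPKM in those 10 libraries.

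Beside Cdkn1c, Slc22a18 had 4.12 to 7.65 FPKM and Kcnq1 0.93 to 2.41 FPKM in the 10 libraries, and Kcnq1 overlapped Cdkn1c. Phlda2, an imprinted gene of the same chromosome region, had 12.1 to 40.7 FPKM in them and 0.05 FPKM in vehicle replicate 2, where Cdkn1c had 1.16 FPKM. Ap1m2, beside Cdkn2d, had 21.3 to 56.7 FPKM in the 10 libraries and 2.37 FPKM in vehicle replicate 2, where Cdkn2d had its highest level. Kri1, on the other side of Cdkn2d, had 12.8 to 20.9 FPKM in the 10 libraries and 20.9 FPKM in vehicle replicate 2, and overlapped Cdkn2d.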
